A study of Mus musculus with 6 samples.

Results

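The genes of transforming growth factor beta (TGF-β) supply were described in primary mouse cardiac fibroblasts treated with PDGF-DD. They comprised the ligand genes Tgfb1, Tgfb2 and Tgfb3, the receptor genes Tgfbr1, Tgfbr2 and Tgfbr3, and the latent TGF-β binding protein genes Ltbp1, Ltbp2, Ltbp3 and Ltbp4. They were chosen by gene symbol, with no threshold on a measured value, and made up 10 of the 18059 genes in the deposited tables. Earlier results of these data were known when the set was chosen. All 10 had enough reads to be tested. PDGF-DD, the protein added to the cells, is a homodimeric growth factor for connective tissue cells. The PDGF-DD group (3 libraries) received 20 µM PDGF-DD for 12 hours, a dose given as the labels write it and very high for a growth factor. The control group (3 libraries) received saline for the same time. Both groups were C57BL/6 cells isolated from hearts of mice aged 1 to 2 weeks and cultured with 15% fetal serum. The growth protocol states for all samples that the mice were global PDGF-D KO mice, whereas the genotype field reads PDGF-D -/- for the PDGF-DD samples and control for the control samples. If that field is right, genotype and treatment cannot be told apart.

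TGF-β is made as a precursor whose cut propeptide stays wrapped around the mature dimer and keeps it latent. In the matrix-secreting cells of the heart most of it leaves the cell disulfide-bonded to a latent TGF-β binding protein, which anchors the complex to fibronectin and fibrillin fibres until integrins, proteases or thrombospondin free the ligand. Free ligand binds the type II receptor kinase, which recruits and phosphorylates the type I receptor kinase. That kinase phosphorylates SMAD proteins, and in cardiac fibroblasts the pathway is known for inducing matrix genes and the contractile genes of myofibroblasts.

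The libraries held between 21221114 and 21371829 estimated read counts. Whether the 3 libraries of each group had separate cultures or animals behind them is not stated, so the spread that the p-values rest on may be technical. Reads of the gene named in the genotype, Pdgfd, were 69, 72 and 82 in the PDGF-DD libraries and 118, 114 and 91 in the control libraries, and counts over the whole gene do not check a deletion of part of it. Control replicate 1 stood apart from its group: its counts differed from those of the other control libraries by a chi-square statistic of 5.11 and 5.71 for each degree of freedom, and those libraries differed by 2.48 from each other. Of the 6 fibroblast markers, summed at 12168 to 12467 TPM with PDGF-DD and 13303 to 14562 TPM in control, 5 were lower and Pdgfra was higher. Most of that sum was Col1a1 (mean 6895.9 TPM with PDGF-DD, 8071.4 TPM in control) and Col1a2 (4622.5 TPM with PDGF-DD, 5089.7 TPM in control). Both collagen genes are also in the list of TGF-β targets below, and the marker Dcn is in that of antagonists. TPM is a level per transcript length. Other cell types were also seen. Cardiomyocyte markers summed to 220 to 249 TPM with PDGF-DD and 310 to 331 TPM in control (3 of 4 tested lower), with Actn2 and Ryr2 under 1 TPM in every library. Smooth muscle and pericyte markers summed to 66.3 to 69.7 TPM with PDGF-DD and 86.0 to 96.9 TPM in control, with 3 of 4 tested lower, 1 higher and Kcnj8 under 1 TPM. Macrophage markers summed to 67.5 to 77.0 TPM with PDGF-DD and 76.0 to 84.8 TPM in control, and endothelial markers to 135 to 138 TPM with PDGF-DD and 136 to 150 TPM in control, and no gene of either list passed the test. Mesothelial markers summed to 39.6 to 44.6 TPM with PDGF-DD and 45.2 to 50.9 TPM in control, with 1 of 4 lower. The part of these shifts in the results below was not tested, and in bulk RNA fewer cells of a type and less RNA per cell cannot be told apart.

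Sequences before the start sites are shown for the member that rose most (Ltbp1, which RefSeq gives separate upstream and downstream starts), the ligand that fell most (Tgfb2) and the ligand that did not pass the test (Tgfb1). Each is the 250 bases before a RefSeq start in build GRCm38.p6, which is not the mm9 build named by the submitters, written 5′ to 3′ on the gene's strand. Capitals mark TATAAA, TGACGTCA (the cyclic AMP response element) and GGGCGG (the GC box) or their reverse complements.
Tgfb2, minus strand, chr1:186705990-186706239: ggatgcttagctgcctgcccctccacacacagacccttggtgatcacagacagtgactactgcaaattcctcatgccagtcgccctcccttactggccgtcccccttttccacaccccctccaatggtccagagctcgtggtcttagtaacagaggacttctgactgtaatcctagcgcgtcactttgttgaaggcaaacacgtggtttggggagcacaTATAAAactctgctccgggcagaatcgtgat
Tgfb1, plus strand, chr7:25686752-25687001: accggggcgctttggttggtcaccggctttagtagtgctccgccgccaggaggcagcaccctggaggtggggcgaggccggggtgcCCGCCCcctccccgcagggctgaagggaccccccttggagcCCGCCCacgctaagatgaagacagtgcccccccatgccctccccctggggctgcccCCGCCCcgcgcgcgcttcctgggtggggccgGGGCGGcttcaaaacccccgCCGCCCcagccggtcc
Ltbp1 upstream start, plus strand, chr17:75005279-75005528: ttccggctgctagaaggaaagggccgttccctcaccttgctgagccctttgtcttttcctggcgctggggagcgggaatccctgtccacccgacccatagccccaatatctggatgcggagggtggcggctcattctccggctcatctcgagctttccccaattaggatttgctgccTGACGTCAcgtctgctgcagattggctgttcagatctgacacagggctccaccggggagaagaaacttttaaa
Ltbp1 downstream start, plus strand, chr17:75178531-75178780: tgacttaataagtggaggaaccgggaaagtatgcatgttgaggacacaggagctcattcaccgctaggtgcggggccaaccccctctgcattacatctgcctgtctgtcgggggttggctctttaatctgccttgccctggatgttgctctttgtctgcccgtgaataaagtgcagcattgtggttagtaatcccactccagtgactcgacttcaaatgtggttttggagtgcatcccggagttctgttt
The Tgfb2 window held TATAAA with its first base 31 bases before the start, and no GC box. The Tgfb1 window held 5 GC boxes, no TATAAA and 75.2% G and C, against 53.6% in that of Tgfb2. TGACGTCA stood 73 bases before the upstream start of Ltbp1 and was absent from the downstream window. Over all 32851 windows of this length in the table, on both strands, TATAAA was present in 12.4%, TGACGTCA in 1.55% and GGGCGG in 32.7%. The AP-1 motif TGANTCA, present in 6.75% of all windows, was in none of the 12 windows of the 8 members listed in the table. A match is only a match of letters.

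Of the 10 members, 2 were higher with PDGF-DD (Ltbp1 and Ltbp2), 4 were lower (Tgfb2, Tgfb3, Ltbp3 and Ltbp4) and 4 did not pass (Tgfb1 and the receptors). A gene was called at an adjusted p under 0.05 (quasi-likelihood test of edgeR, adjusted by Benjamini-Hochberg over 13270 genes). Of all these genes 36.5% were called, 19.1% higher and 17.4% lower, and the count of called members is to be read against those shares. The median log2 fold change was -0.075 over the members and -0.01 over all tested genes, and the median absolute value 0.175 over the members and 0.148 over all tested genes. By size of log2 fold change Ltbp1 ranked 59th from the top among the rises and Tgfb2 146th among the falls of the 13270 genes. CPM ranges of the groups did not overlap for 7 members, where 47.1% of all tested genes had no overlap. CPM are read counts scaled to library size with TMM factors, and are compared here only within a gene.

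**Figure D1:**
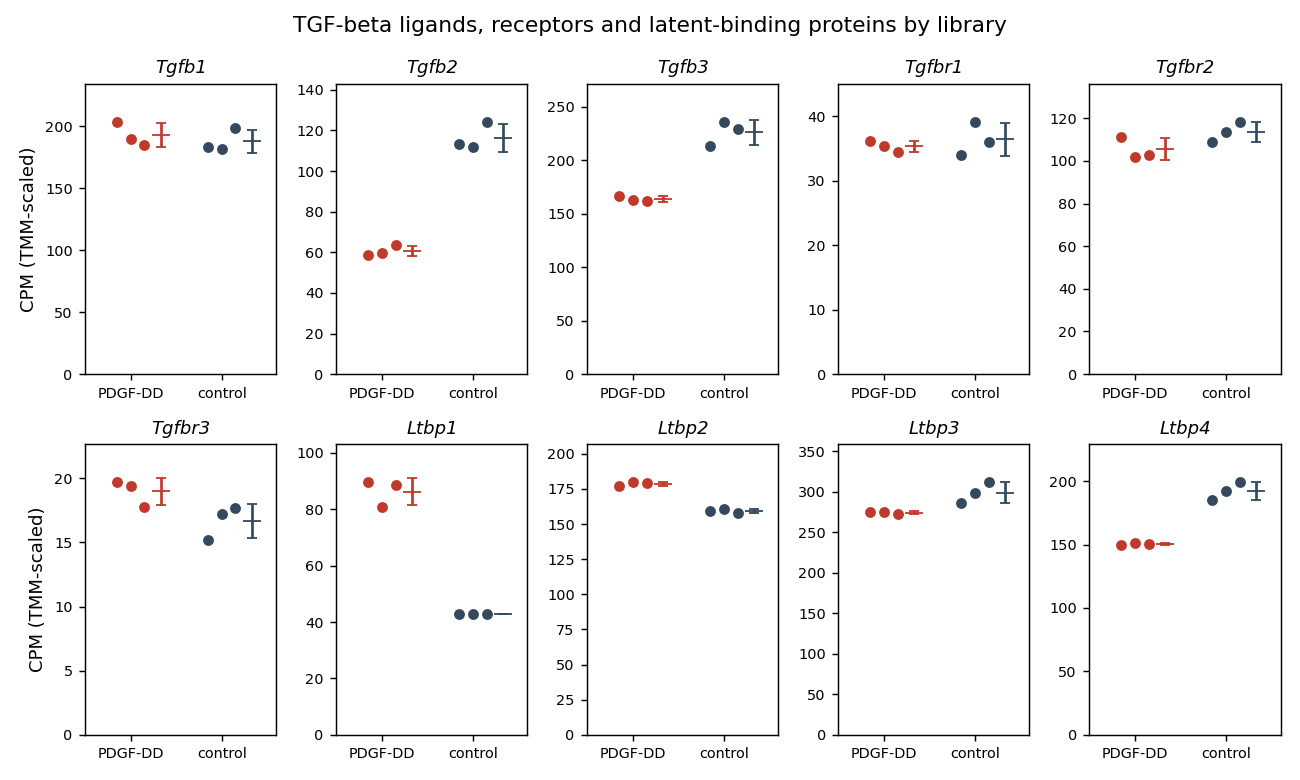
CPM (vertical axes, from 0) of each member in 3 PDGF-DD libraries (red, left) and 3 control libraries (dark, right). Points are libraries and bars are the mean ± SD. Ltbp1 lies between 80.7 and 89.6 CPM with PDGF-DD and between 42.7 and 43.0 CPM in control, and Tgfb2 shows the opposite order.

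**Figure D2:**
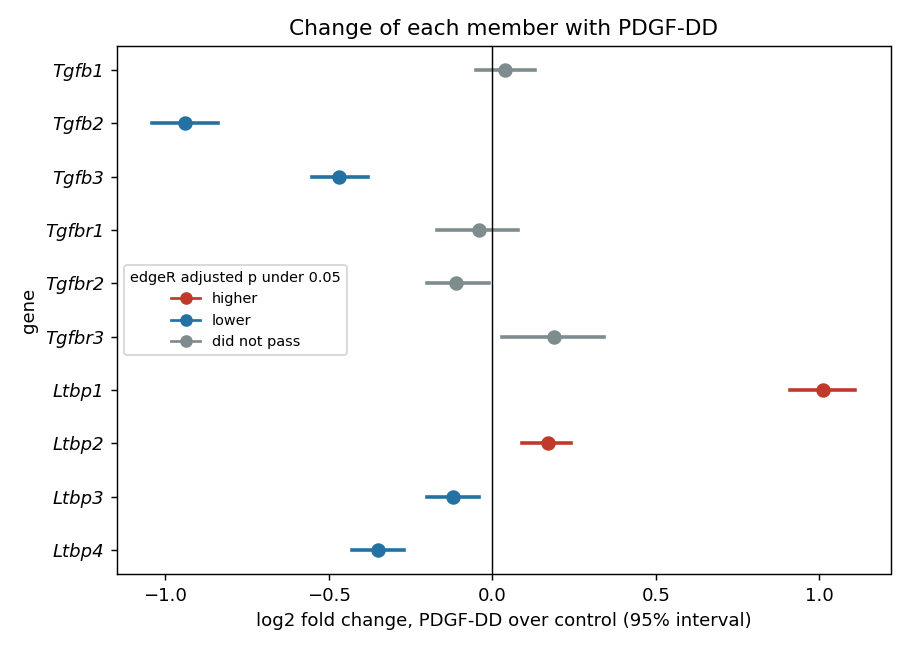
Log2 fold change of each member, PDGF-DD over control, with its 95% interval from edgeR. Genes called higher are red, called lower blue and not called grey. Ltbp1 at 1.01 and Tgfb2 at -0.94 lie farthest from 0, and the 3 receptors lie within 0.19 of it.

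Among the ligands, Tgfb2 and Tgfb3 fell and Tgfb1 did not pass. Tgfb2 (Entrez gene 21808), whose product needs the co-receptor betaglycan for high-affinity binding to the type II receptor, had 58.7, 59.8 and 63.6 CPM in the PDGF-DD libraries, against 113, 112 and 124 CPM in the control libraries. Every PDGF-DD library lay below every control library by a wide margin. Its log2 fold change was -0.94 (SE 0.05, 95% interval -1.04 to -0.84, edgeR adjusted p = 8.02e-14), a level in control 1.92-fold that with PDGF-DD. Tgfb3 (Entrez gene 21809), a ligand with high affinity for the type II receptor, had 167, 163 and 162 CPM with PDGF-DD, against 213, 236 and 229 CPM in control. The groups did not overlap, and the log2 fold change was -0.47 (SE 0.04, 95% interval -0.55 to -0.38, edgeR adjusted p = 1.63e-09). Tgfb1 (Entrez gene 21803), the ligand most often linked to fibrosis, had 204, 190 and 185 CPM with PDGF-DD, against 183, 182 and 198 CPM in control. Its groups overlapped (log2 fold change 0.04, edgeR adjusted p = 0.508), and the 95% interval of the fold was 0.966 to 1.09.

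None of the 3 receptor genes passed the test. Tgfbr1 (Entrez gene 21812), the type I receptor kinase that phosphorylates SMAD2 and SMAD3, had 36.1, 35.4 and 34.4 CPM with PDGF-DD, against 34.0, 39.2 and 36.1 CPM in control. All PDGF-DD libraries lay inside the control range, and the log2 fold change was -0.04 (95% interval -0.17 to 0.08, edgeR adjusted p = 0.588). Tgfbr2 (Entrez gene 21813), the type II receptor kinase that binds ligand, had 111, 102 and 103 CPM with PDGF-DD, against 109, 114 and 118 CPM in control. PDGF-DD replicate 1 lay inside the control range (log2 fold change -0.11, 95% interval -0.20 to -0.01, edgeR adjusted p = 0.0639). The gene passed as lower without PDGF-DD replicate 1 (0.037), without control replicate 1 (0.0164) and with upper-quartile scaling (0.0266), in a range of 0.0164 to 0.264 over all alternatives. Tgfbr3 (Entrez gene 21814), the co-receptor betaglycan, had 19.7, 19.4 and 17.8 CPM with PDGF-DD, against 15.2, 17.2 and 17.7 CPM in control. It was the member with the fewest reads, 322 to 420 per library, and its groups were barely separated in CPM and overlapped in TPM (log2 fold change 0.19, 95% interval 0.03 to 0.34, edgeR adjusted p = 0.0534). It passed as higher in 4 of 17 alternatives, among them those without PDGF-DD replicate 3 (0.0388) and without control replicate 3 (0.0353), in a range of 0.0353 to 0.232.

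Among the binding proteins Ltbp1 and Ltbp2 rose and Ltbp3 and Ltbp4 fell. Ltbp1 (Entrez gene 268977), which binds the latent forms of all TGF-β ligands and tethers them to fibronectin and fibrillin-1, had 89.6, 80.7 and 88.5 CPM in the PDGF-DD libraries, against 42.7, 43.0 and 42.9 CPM in the control libraries. The control libraries were nearly equal and all PDGF-DD libraries stood far above them. The gene rose 2.01-fold (log2 fold change 1.01, SE 0.05, 95% interval 0.91 to 1.11, edgeR adjusted p = 3.09e-14). Ltbp2 (Entrez gene 16997), an elastic-fibre protein of the family that does not bind latent TGF-β, had 177, 180 and 179 CPM with PDGF-DD, against 159, 161 and 158 CPM in control. The rise was small and the groups did not overlap (edgeR log2 fold change 0.17 with an SE of 0.04, adjusted p = 0.00098). Ltbp4 (Entrez gene 108075), which binds latent TGF-β1 and takes part in elastic fibre assembly, had 150, 152 and 151 CPM with PDGF-DD, against 186, 192 and 199 CPM in control. All PDGF-DD libraries were lower (log2 fold change -0.35, SE 0.04, 95% interval -0.43 to -0.27, edgeR adjusted p = 7.8e-08). Ltbp3 (Entrez gene 16998), which binds latent TGF-β1 to TGF-β3 and is needed in the skeleton, had 275, 275 and 272 CPM with PDGF-DD, against 286, 298 and 312 CPM in control. The groups did not overlap, but the fall was small (edgeR log2 fold change -0.12 with an SE of 0.04, adjusted p = 0.0158). This call was lost in 8 of 17 alternatives, among them those without PDGF-DD replicate 1 (0.0629), 2 (0.0537) or 3 (0.0849) and without control replicate 3 (0.102), in a range of 0.00175 to 0.102.

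The make-up of the ligand and binding-protein transcripts moved with these changes. Tgfb1 made up 60.9%, 59.6% and 58.8% of the summed ligand TPM in the PDGF-DD libraries, against 50.0%, 48.0% and 50.1% in the control libraries. Tgfb2 made up 7.88% ± 0.57 with PDGF-DD and 12.8% ± 0.41 in control, and Tgfb3 32.3% ± 0.52 with PDGF-DD and 37.9% ± 1.6 in control (SD, n = 3 libraries each). The ratio of Tgfb1 to Tgfb2 TPM was 6.95 to 8.30 in the PDGF-DD libraries and 3.81 to 3.89 in the control libraries. The summed ligand level was 335.5 to 360.1 TPM with PDGF-DD and 380.7 to 432.6 TPM in control. Among the binding proteins Ltbp1 made up 12.1%, 11.0% and 12.0% of the summed TPM with PDGF-DD, against 5.77%, 5.67% and 5.44% in control. The share of Ltbp2 was 20.1% ± 0.25 with PDGF-DD and 17.6% ± 0.62 in control. Shares of Ltbp3 (45.6% ± 0.31 with PDGF-DD and 48.7% ± 0.70 in control) and Ltbp4 (22.5% ± 0.31 with PDGF-DD and 28.1% ± 0.12 in control) were smaller with PDGF-DD. Each of these 7 shares separated the groups without overlap, with p = 0.1 in the exact two-sided permutation test, which cannot go lower with 3 libraries a group, and 0.1 after Benjamini-Hochberg adjustment over the 7. The summed level of the 4 binding proteins overlapped between the groups, at 296.8 to 306.7 TPM with PDGF-DD and 291.5 to 325.7 TPM in control. Sums and ratios were chosen after the values were seen and are given without a test.

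**Figure D3:**
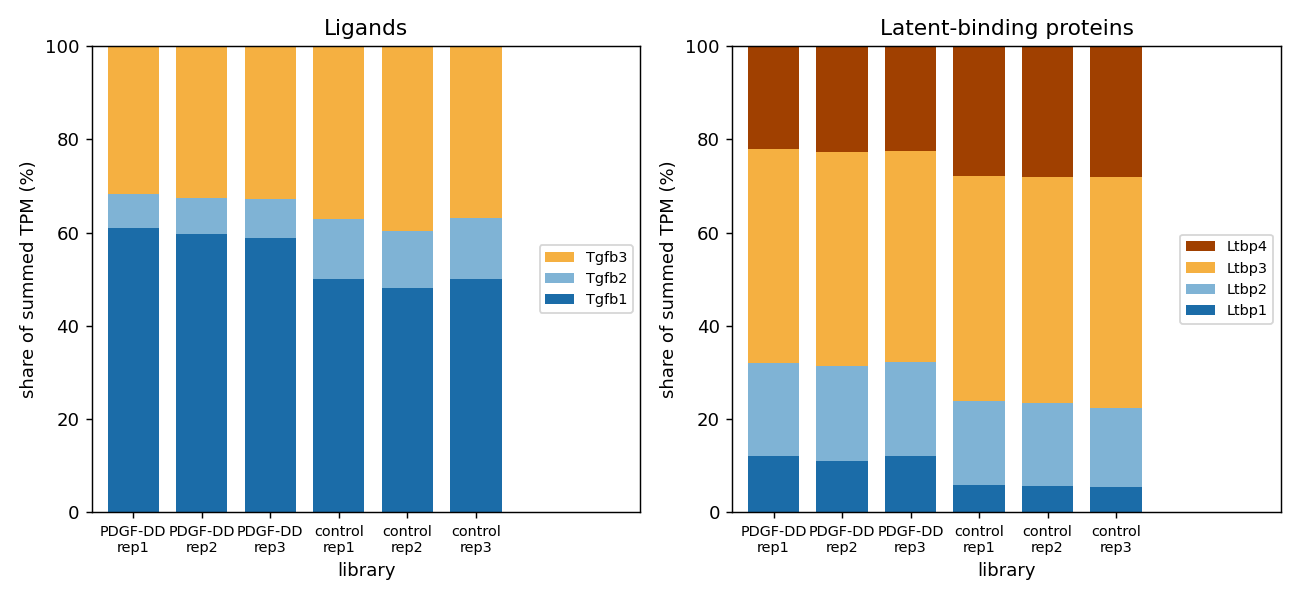
Share of each gene in the summed TPM of the ligands (left) and of the latent-binding proteins (right), one bar per library, PDGF-DD libraries before control libraries. The Tgfb1 share is 58.8% to 60.9% with PDGF-DD and 48.0% to 50.1% in control, and the Ltbp1 share 11.0% to 12.1% with PDGF-DD and 5.44% to 5.77% in control.

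Per transcript length Tgfb1 was the most abundant member in both groups, at 206.1 ± 11.6 TPM with PDGF-DD and 201.9 ± 13.4 TPM in control (SD, n = 3 libraries each). With PDGF-DD the order from there was Ltbp3, Tgfb3, Ltbp4, Ltbp2, Tgfbr2, Ltbp1, Tgfb2, Tgfbr1 and Tgfbr3, and no neighbours in that order overlapped in their ranges. In control the order was Tgfb1, Tgfb3, Ltbp3, Ltbp4, Tgfbr2, Ltbp2, Tgfb2, Ltbp1, Tgfbr1 and Tgfbr3. Tgfb3 and Ltbp3 overlapped there, as did Tgfbr2 and Ltbp2, and Ltbp2 and Tgfb2. Ltbp1 and Tgfb2 changed places, with Ltbp1 at 35.5 ± 2.46 TPM with PDGF-DD and 17.5 ± 0.58 TPM in control, and Tgfb2 at 27.1 ± 1.31 TPM with PDGF-DD and 52.3 ± 3.96 TPM in control. Tgfbr1 and Tgfbr3 were the scarcest in both groups, with Tgfbr3 at 7.13 ± 0.38 TPM with PDGF-DD and 6.32 ± 0.68 TPM in control.

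The read count and the FPKM (reads per transcript length and library size) of a gene together give the effective transcript length that the authors' quantification used, which moves when the mix of a gene's transcripts is estimated differently. For Ltbp1 this implied length was 5515, 5530 and 5528 bases in the PDGF-DD libraries, against 5614, 5583 and 5626 bases in the control libraries. All PDGF-DD libraries were shorter, by 1.5% on average, with an uncertainty from the rounding of FPKM of at most 3.7 bases. A two-sided exact permutation test gave p = 0.1, the smallest possible with n = 3 a group, and 0.5 after adjustment over the 10 members. Ltbp1 is known to be made as a long and a short form from the separate start sites shown above. In GENCODE M21 the longest coding transcript had 6671 bases from the upstream start and 5140 bases from the downstream start. The sources used here do not give the authors' transcript set, and which transcripts the shift concerns was not tested. Among 7731 genes with at least 5 FPKM in every library, 13.1% had implied lengths without overlap between the groups, and 3.07% had that together with a change at least as large as that of Ltbp1. For the other members the mean implied lengths differed by 0.35% or less between the groups. Tgfb3 was the only other member with no overlap, and its difference of 0.30 bases was within the rounding.

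**Figure D4:**
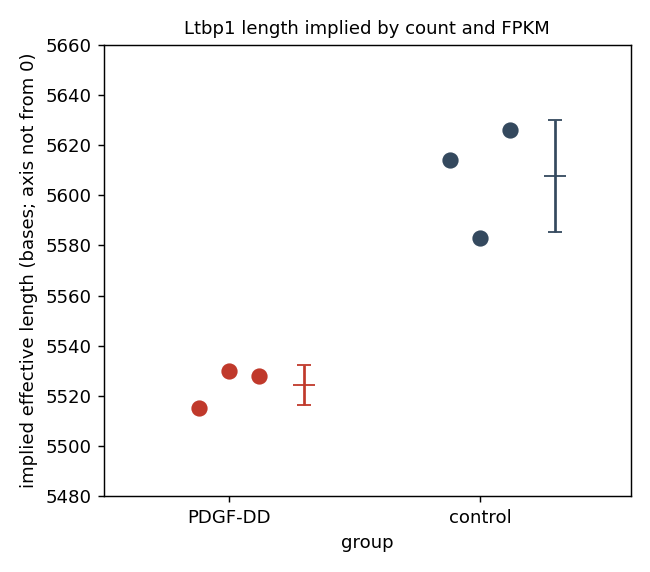
Effective transcript length of Ltbp1 in bases, implied by read count and FPKM, in 3 PDGF-DD libraries (red, left) and 3 control libraries (dark, right). Points are libraries, bars the mean ± SD, and the axis does not start at 0. The PDGF-DD libraries lie between 5515 and 5530 bases and the control libraries between 5583 and 5626 bases.

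Genes that act around these members were described through 7 lists. These were chosen with earlier results of these data known, so their counts are a description and no test of a list. Counts in each direction are to be read against 19.1% higher and 17.4% lower. Medians are to be read against a median log2 fold change of -0.01 over all tested genes. Among 16 tested genes listed for the latency, release or activation of TGF-β, 3 rose and 6 fell, with a median log2 fold change of -0.04. Tgm2 and Nrros, which do not free the ligand themselves, are among the 6. Thrombospondin 1 (Thbs1), which can free the ligand from its propeptide, rose to 4009 ± 168 CPM with PDGF-DD, against 3063 ± 166 CPM in control (SD, n = 3 each). The integrin subunit gene Itgb3 rose by a log2 fold change of 0.56, whereas Itgb5 fell by 0.51 on that scale and Itgb8 by 0.68 (SE 0.14). All of these pair with the αv subunit into integrins that bind the propeptide. Itgb8 was the scarcest tested gene of the list, at 2.25 TPM with PDGF-DD and 3.62 TPM in control. The most abundant integrin subunit of the list, Itgb1, had 2136 ± 26.4 CPM with PDGF-DD and 2251 ± 69.5 CPM in control and did not pass (edgeR adjusted p = 0.0962). The transglutaminase gene Tgm2, whose product crosslinks binding proteins into the matrix, fell to 136 ± 1.24 CPM with PDGF-DD, against 216 ± 8.94 CPM in control (log2 fold change -0.67, edgeR adjusted p = 1.08e-12). The membrane metalloproteinase gene Mmp14 and Adamts1 fell by 0.30 and 0.32 on the log2 scale. Itgb6, Mmp9 and Plg were too low to test.

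The list of matrix anchors of latent complexes had 15 tested genes, of which Adamts10, Adamts17 and Adamtsl2 are ADAMTS or ADAMTS-like genes. In edgeR's test 11 of the list fell and 0 rose, with a median log2 fold change of -0.28. Fibrillin 1 (Fbn1), the main microfibril protein, fell to 2515 ± 40.3 CPM with PDGF-DD, against 3055 ± 138 CPM in control (edgeR adjusted p = 9.48e-07). Fn1, which encodes fibronectin, fell by 0.27 on the log2 scale, Eln, which encodes elastin, by 0.44, and the microfibril-associated gene Mfap4 by 0.46. Adamtsl2, which in humans is linked to a disorder with raised TGF-β signalling and binds LTBP1, fell to 18.8 ± 1.00 CPM with PDGF-DD, against 45.8 ± 1.01 CPM in control (log2 fold change -1.28, edgeR adjusted p = 1.5e-14). Fbln2, the second most abundant of the list, had 5838 ± 105 CPM with PDGF-DD and 5788 ± 146 CPM in control and did not pass (edgeR adjusted p = 0.803). Its log2 fold change of 0.01 was below 0 under upper-quartile scaling and without control replicate 1.

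The list of co-receptors and soluble antagonists went both ways, with 6 of 16 tested genes higher and 7 lower and a median log2 fold change of -0.01. Its called genes include Acvrl1, Fkbp1a, Ldlrad4, Strap and Tgfbrap1, which are neither co-receptors nor soluble antagonists. The pseudoreceptor gene Bambi, which blocks type I receptors, rose by 0.42 on the log2 scale, and the small proteoglycan genes Dcn and Fmod, whose products bind TGF-β, fell by 0.22 and 0.50. Endoglin (Eng), a co-receptor, fell by 0.12 (edgeR adjusted p = 0.0192), a call lost in 7 of 17 alternatives, among them those without PDGF-DD replicate 1 (0.0956) or 3 (0.155) and without control replicate 3 (0.0923), in a range of 0.00426 to 0.155. Bgn, which encodes biglycan and is the most abundant of the list, had 6112 ± 189 CPM with PDGF-DD and 6253 ± 211 CPM in control (edgeR adjusted p = 0.501). Of 25 SMAD genes and partners 4 rose and 6 fell, with a median log2 fold change of -0.04. Smad3, a receptor-activated SMAD, rose by 0.31, and the inhibitory SMAD gene Smad6 fell to 84.6 ± 1.53 CPM with PDGF-DD, against 116 ± 8.07 CPM in control. Smad2 and the shared partner Smad4 did not pass, with log2 fold changes of 0.06 and -0.04. The ubiquitin ligase gene Smurf2, which marks the receptor complex for removal, rose to 201 ± 7.2 CPM with PDGF-DD, against 141 ± 6.62 CPM in control (edgeR adjusted p = 4.5e-10). The number that fell in this list was 1 when control replicate 3 was left out, 2 when PDGF-DD replicate 3 was, and 1 or 2 in the limma fits.

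In the activin branch, whose ligands act on the same SMADs, 3 of 11 tested genes rose and 3 fell (median log2 fold change -0.05), and only 1 fell in DESeq2. Inhba, the activin A subunit, rose to 453 ± 38.4 CPM with PDGF-DD, against 303 ± 13.3 CPM in control, and the follistatin-like gene Fstl1 fell by 0.22 on the log2 scale. Of 14 genes of the branch that does not use SMADs 5 rose and 1 fell (median log2 fold change 0.03), and 2 fell without control replicate 1. The p38 activators Map2k3 and Map2k6 rose by 0.51 and 0.93 on the log2 scale, Map3k7 (the kinase TAK1) by 0.14, and the actin regulator Limk2 fell by 0.22. Map2k6 was the scarcest of the 14, at 2.59 TPM with PDGF-DD and 1.38 TPM in control. The call of Map3k7 was lost in limma on log2(TPM + 1) (adjusted p = 0.0801) and on log2(TPM + 0.1) (0.0795).

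Among genes known as targets of TGF-β, of 42 tested, 25 fell and 9 rose, with a median log2 fold change of -0.17. The list shares 7 genes with the lists above: Eln, Fn1, Inhba, Ldlrad4, Pmepa1, Skil and Smad7. The proteoglycan gene Vcan, Adam12 and Ccn2 rose, by 0.48, 0.44 and 0.22 on the log2 scale. Smooth muscle actin (Acta2) fell to 4106 ± 101 CPM with PDGF-DD, against 5325 ± 209 CPM in control, and the collagen gene Col3a1, Timp3 and Lmcd1 fell by 0.29, 0.41 and 0.71 on the log2 scale. The feedback genes Smad7 and Pmepa1 fell by 0.16 and 0.12. The call of Pmepa1 was lost in 7 of 17 alternatives, which were the 3 limma fits, the replicate block, and those without PDGF-DD replicate 1 (0.0965) or 3 (0.141) or without control replicate 3 (0.155), in a range of 0.00391 to 0.155. That of Smad7 was lost in 5 of 17, which were the 3 limma fits and those without PDGF-DD replicate 3 (0.0559) or without control replicate 3 (0.0525), in a range of 0.000926 to 0.103. Postn, which encodes periostin, stood at 2784 CPM with PDGF-DD and 2794 CPM in control (edgeR adjusted p = 0.929). The smooth muscle and pericyte markers given above were lower in the same PDGF-DD libraries as Acta2, and their part in its fall was not tested.

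**Figure D5:**
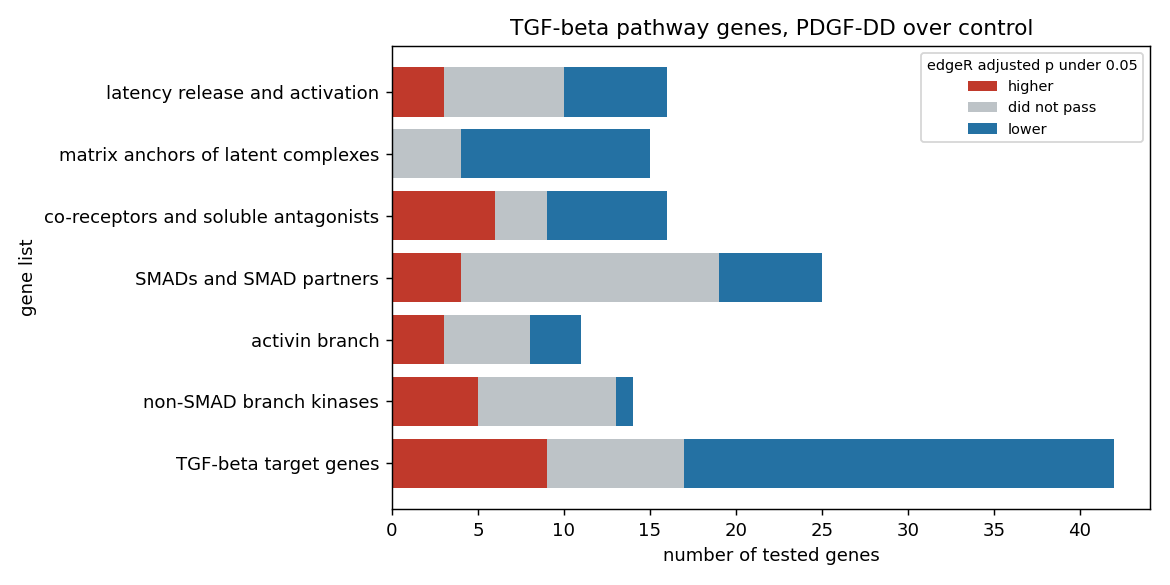
Number of tested genes in each of 7 lists (rows) that were higher (red), did not pass (grey) or were lower (blue) with PDGF-DD, by an edgeR adjusted p under 0.05. In the matrix list 11 of 15 genes are lower and 0 higher, and in the target list 25 of 42 are lower and 9 higher. The lists were chosen with earlier results of these data known.

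Over the 6 libraries the genes whose log2 CPM followed that of Ltbp1 most closely, among 10455 genes averaging 5 CPM or more, were Cd44 and Nqo2. Pearson's r was 0.999 for each. The correlation describes these libraries, which fall into 2 groups, and a gene that separates the groups cleanly reaches a high value. Cd44, which encodes the hyaluronan receptor, had 278.9 CPM with PDGF-DD and 172.3 CPM in control, and Nqo2, which encodes a quinone reductase, 27.0 CPM with PDGF-DD and 22.6 CPM in control.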

How the data were processed

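Messenger RNA of 6 libraries was captured on oligo(dT) beads and read as DNA nanoballs, as the labels' protocols state. The submitters' processing notes name HISAT2 2.0.4, Bowtie2 2.2.5, RSEM 1.2.12, DESeq2 1.4.5 and build mm9, without roles. For annotation, filters and strand, the sources used here give nothing. The authors deposited estimated counts (31.9% to 32.7% not whole), FPKM and TPM per gene, per the file headers. In no library were the counts of Tgfbr1 and Ltbp3 whole, and those of Tgfb2 were not whole in some libraries. In GENCODE M21 exons of Ltbp2, Tgfb2, Tgfb3 and Tgfbr3 overlap exons of other genes, and reads cannot be told apart there. Some results are not reported here.

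The counts were rounded, filtered with filterByExpr, scaled with TMM factors (0.995 to 1.01) and compared with edgeR 4.0.16 (quasi-likelihood F test, robust, two-sided) in R 4.3.3. The SE is the log2 fold change divided by the square root of F. Alternatives used limma 3.58.1 on log2(TPM + 1), log2(TPM + 0.1) and log2(FPKM + 1), and DESeq2 1.42.0. Exact permutation tests used scipy 1.17.1. The method was tested on simulated counts, drawn with the dispersions that it had fitted to these data. Such a test cannot check whether the spread between libraries is technical or whether genotype differs between the groups. The members and lists were chosen with earlier results of these data known. The rule for naming allowed all members, called list members, the 2 most abundant of a list, and the genes most like the member with the smallest p. Not all genes that it allowed are named. Smad2, Smad4 and Postn fall outside that rule and were chosen after their values were seen. The lowest count of a member in a library was 322.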

Additional observations from a re-analysis of the deposited data

How the results depend on the processing

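The calls of Ltbp1, Tgfb2, Tgfb3, Ltbp4 and Ltbp2 kept their direction and side of the threshold in all 17 alternatives, with log2 fold changes from 0.95 to 1.06, -0.97 to -0.87, -0.51 to -0.43, -0.38 to -0.32 and 0.14 to 0.18. Ltbp3 lost its call in 8, including limma on log2(TPM + 1) (adjusted p = 0.0716), on log2(TPM + 0.1) (0.0707) and on log2(FPKM + 1) (0.0565), and the cause was not tested. Tgfbr3 also passed with total count scaling (0.0404) and without the low-count filter (0.0436). Tgfbr1 changed sign without control replicate 2 (log2 fold change 0.011, lowest -0.091 over libraries left out), Fbln2 with upper-quartile scaling and without control replicate 1 (-0.008 each, highest 0.03) and Bgn without PDGF-DD replicate 3 (0.001, lowest -0.057); none passed the test either way. With CPM in place of TPM, which is not per length, the share difference (PDGF-DD minus control) was -7.41 percentage points for Tgfb2, -3.42 for Tgfb3 and -5.90 for Ltbp4, against -4.91, -5.54 and -5.54. Leaving out 1 library moved the Ltbp1 length difference between -95.3 and -74.0 bases. Deviations from the group mean had correlations of -0.31, -0.36 and 0.00 between libraries with the same replicate number, over 10456 genes. Between PDGF-DD replicate 2 and control replicate 1 the correlation was 0.38. With 3 libraries a group these values are tied to each other and cannot settle whether the numbers pair the libraries. The labels do not say so either. With a replicate block in edgeR 2 members were higher and 3 lower, Ltbp3 losing its call (log2 fold change -0.122, adjusted p = 0.0584). The member with the fewest reads was Tgfbr3, with 322 to 420 per library.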
